A study of Rattus norvegicus with 12 samples.

Results

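The genes described here encode 10 heat shock chaperones and cochaperones of the cytosol and the mitochondria: Hspa8, Dnaja1, Dnajb1, Hsph1, Bag3, Hsp90aa1, Hsp90ab1, Hspb1, Hspd1 and Hspe1. They were picked by symbol from a table of 30452 rat genes, and each of the 10 symbols had 1 row. Sequencing covered rat corneas in 4 groups of 3 libraries, labelled SF/HA-HEP-PAM, SF/HA, Alkali-burned and Control. The study concerns a detachable silk patch for the eye surface that takes up mediators of inflammation, and the labels name 2 patch groups, an alkali burn group and a control group. SF, HA, HEP and PAM are not spelled out, and strain, age, dose and time are not given. Whether patch-treated corneas were burned first is also not stated. Nothing ties a replicate to its own animal, so p-values measure the spread between these libraries, which may be technical.

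Heat shock proteins bind unfolded or damaged proteins, keep them from aggregating and help them to fold. Hspa8 is the constitutive cytosolic HSP70. J-domain proteins such as Dnaja1 and Dnajb1 hand it clients and start its ATP cycle, and the exchange factors Hsph1 and Bag3 help it to release ADP. Hsp90aa1 and Hsp90ab1 are the cytosolic HSP90 chaperones, Hspb1 is a small heat shock protein, and Hspd1 with its lid Hspe1 forms the mitochondrial chaperonin. On heat or chemical stress the transcription factor HSF1 binds heat shock elements, which are GAA units repeated in alternating orientation, in the promoters of many of these genes.

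The promoters are shown because the genes are commonly grouped by this shared element, while their levels went in different directions across the corneas. Windows of 250 bases before to 50 bases after the gene start were matched by symbol in RefSeq sequence of build GRCr8 for 9 of the 10 genes; Hsp90aa1 had no entry. Capitals mark every match to GAANNTTC or TTCNNGAA. Each of these motifs reads the same on both strands, and matches may overlap by sharing a GAA or TTC.
Hspa8, chr8:50080264-50080563, plus strand: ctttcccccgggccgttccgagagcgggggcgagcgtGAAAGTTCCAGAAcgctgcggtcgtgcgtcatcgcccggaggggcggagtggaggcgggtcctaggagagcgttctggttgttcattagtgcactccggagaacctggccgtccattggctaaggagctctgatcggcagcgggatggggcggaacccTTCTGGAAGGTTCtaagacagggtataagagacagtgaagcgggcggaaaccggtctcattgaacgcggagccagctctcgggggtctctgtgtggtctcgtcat
Hsph1, chr12:10427118-10427417, plus strand: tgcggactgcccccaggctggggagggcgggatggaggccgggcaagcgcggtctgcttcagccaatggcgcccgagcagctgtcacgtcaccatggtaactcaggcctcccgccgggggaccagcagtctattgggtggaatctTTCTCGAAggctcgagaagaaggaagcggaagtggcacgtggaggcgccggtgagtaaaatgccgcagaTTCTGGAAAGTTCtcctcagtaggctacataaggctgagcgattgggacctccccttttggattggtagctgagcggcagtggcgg
Dnajb1, chr19:41431092-41431391, minus strand: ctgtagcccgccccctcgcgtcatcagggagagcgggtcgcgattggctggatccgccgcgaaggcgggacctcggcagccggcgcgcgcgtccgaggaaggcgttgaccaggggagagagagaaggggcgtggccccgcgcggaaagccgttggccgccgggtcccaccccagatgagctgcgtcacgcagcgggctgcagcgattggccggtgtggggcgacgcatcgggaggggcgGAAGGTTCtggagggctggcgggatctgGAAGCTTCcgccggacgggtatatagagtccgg
Hspe1, chr9:64084077-64084376, plus strand: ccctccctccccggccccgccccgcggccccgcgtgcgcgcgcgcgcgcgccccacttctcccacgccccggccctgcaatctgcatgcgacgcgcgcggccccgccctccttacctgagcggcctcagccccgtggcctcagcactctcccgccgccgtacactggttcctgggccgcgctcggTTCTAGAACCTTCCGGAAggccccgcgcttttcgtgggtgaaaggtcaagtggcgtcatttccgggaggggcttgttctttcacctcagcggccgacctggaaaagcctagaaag
At least 1 match was present in 8 of the 9 windows, against 15.9% of 33469 rat promoter windows of the same length. Matches with 3 units in a row, GAANNTTCNNGAA or its reverse complement TTCNNGAANNTTC, were present in 5 of the 9 windows (Hspa8, Hsph1, Dnaja1, Hspd1 and Hspe1), against 0.798% of all windows. The Hspa8 window held 2 such runs, GAAAGTTCCAGAA beginning 213 bases and TTCTGGAAGGTTC beginning 55 bases before the start. The Hsph1 window held TTCTGGAAAGTTC beginning 36 bases before the start. The Dnajb1 window held only the shorter form, GAAGGTTC beginning 11 bases before the start and GAAGCTTC beginning 17 bases after it. Hspe1 and Hspd1 are divergent neighbours whose windows share 211 bases, so the run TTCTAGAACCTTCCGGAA of Hspe1 is the same stretch as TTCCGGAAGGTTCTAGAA of Hspd1. The windows of Hspb1, Dnaja1 and Bag3 held shorter forms too, and none of these letters occurred in the Hsp90ab1 window. A match is a description of letters and not a shown binding site.

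Levels are FPKM, reads scaled to gene span and library size, as the authors deposited them. The libraries held 486264 to 2117399 reads, recovered from the deposited values, and 20 to 3901 reads lay on 1 of these genes in 1 library. Control replicate 1 was the shallowest library and stood apart from its group. It was the highest Control library for 8 of the 10 genes and the lowest for Dnajb1 and Hspb1. Its Hsph1 level was 3.89 times and its Hsp90aa1 level 3.1 times the mean of the other Control libraries, and its Dnajb1 level was 0.453 times that mean. Its summed FPKM of 8 stroma markers was 5259, against 2009 and 2294 in Control replicates 2 and 3, and its summed FPKM of 8 corneal epithelium markers was 4020, against 7209 and 7071. Alkali-burned replicate 1 was the highest library of its group for 9 of the 10 genes. Its summed FPKM of 6 neutrophil markers was 3566, against 550.7 and 648.3 in Alkali-burned replicates 2 and 3. Its epithelium sum was 2176, against 3514 and 3301, and its myofibroblast sum was 84.19, against 47.66 and 47.07. The part of either library's make-up in the results was not tested, and results are given below with and without Control replicate 1. Leaving that library out was guided by these genes' own values in part, and it lowers their spread by construction.

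**Figure D1:**
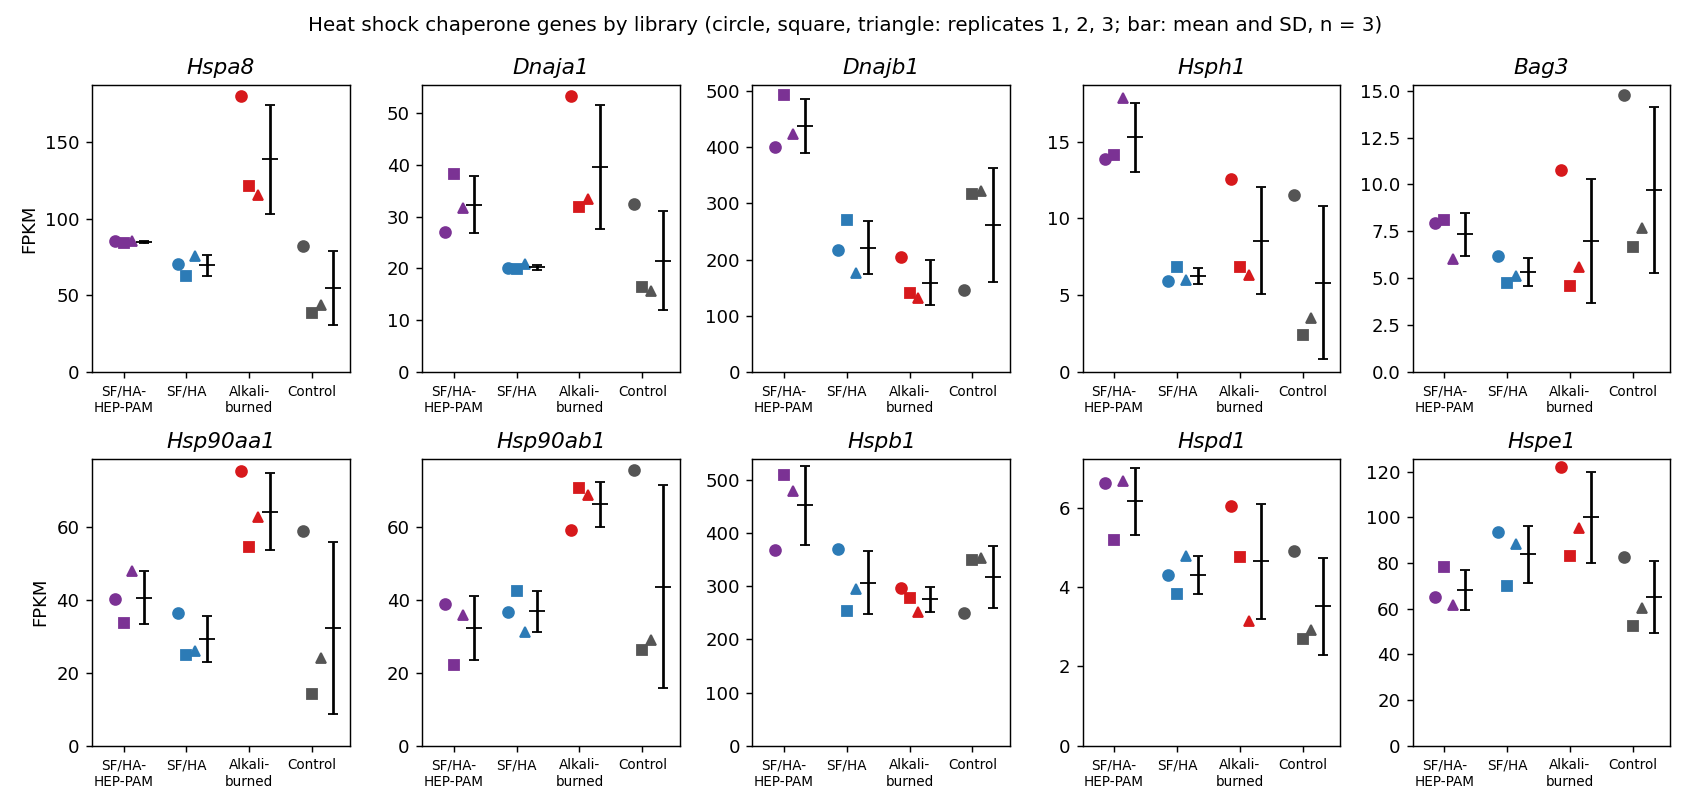
FPKM of each gene in the 12 libraries, with 1 panel per gene, linear axes from 0, marker shapes for replicates and bars for the mean and SD (n = 3). Dnajb1 averaged 438.7 FPKM in SF/HA-HEP-PAM against 159.3 FPKM in Alkali-burned corneas, Hspa8 averaged 139.0 FPKM in Alkali-burned against 54.78 FPKM in Control corneas, and Control replicate 1 (grey circle) lies away from the other Control points in most panels.

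Alkali-burned corneas had more Hspa8 RNA than Control corneas, and SF/HA-HEP-PAM corneas had more Dnajb1 and Hspb1 RNA than Alkali-burned corneas and more Hsph1 RNA than Control corneas. These were the 4 differences among the 10 genes that passed the test, limma on log2(FPKM + 1) over all 12 libraries with Benjamini-Hochberg adjusted p below 0.05 among 6112 tested genes. All 10 genes were tested. Between Alkali-burned and Control corneas 1 gene of 10 rose and 0 fell, where 9.41% of all tested genes passed. Between SF/HA-HEP-PAM and Alkali-burned corneas 2 of 10 rose and 0 fell, where 22.5% of all tested genes passed, so this count was near the background. With median-of-ratios scaling 1 of 10 rose in this comparison (Dnajb1) and 3 fell (Hspa8, Hsp90ab1 and Hspe1), and with quantile normalization 2 rose and 0 fell. All-gene calls in this comparison ranged from 732 to 2784 over all settings, and the shares with these scalings are not given. Between SF/HA-HEP-PAM and Control corneas 1 of 10 rose and 0 fell, where 21.9% of all tested genes passed. No gene of the 10 passed by limma between SF/HA and Alkali-burned corneas (3.34% of all tested genes), where 4 had an unadjusted p below 0.05 and voom on recovered reads called 1. By limma 0 of 10 passed between SF/HA-HEP-PAM and SF/HA corneas (8.85% of all tested genes), where 4 had an unadjusted p below 0.05 and voom called 2. Between SF/HA and Control corneas limma and voom both called 0 of 10 (6.59% of all tested genes by limma), and 0 had an unadjusted p below 0.05. The shares of all genes called by voom are not given here. The differences of Hspa8 after the burn, Dnajb1 against burned corneas and Hsph1 against Control corneas also passed 2-fold, as 5.69%, 11.1% and 11.6% of all tested genes did in these comparisons. The comparisons share libraries, so their values are given side by side and are not independent.

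The median log2 difference of the 10 genes was 0.646 between Alkali-burned and Control corneas, beside 0.0626 over all tested genes. It was -0.301 between SF/HA and Alkali-burned corneas, beside -0.036 over all tested genes, and -0.0624 between SF/HA-HEP-PAM and Alkali-burned corneas, beside 0.0378. Within the last of these medians the genes differed in direction. All 3 SF/HA-HEP-PAM libraries were above all 3 Alkali-burned libraries for Dnajb1, Hsph1 and Hspb1, where 26.2% of all tested genes were, and below them for Hspa8, Hsp90aa1, Hsp90ab1 and Hspe1, where 21.3% were. All 3 SF/HA libraries were below all 3 Alkali-burned libraries for Dnaja1, Hspa8, Hsp90aa1 and Hsp90ab1, where 13.4% of all tested genes were. All 3 Alkali-burned libraries were above all 3 Control libraries for Hspa8 and Hspe1, where 19.1% of all tested genes were. All 3 SF/HA-HEP-PAM libraries were above all 3 SF/HA libraries for Dnajb1, Dnaja1, Hspa8, Hsph1 and Hspd1, where 21.6% were, and above all 3 Control libraries for Dnajb1, Hspa8, Hsph1, Hspb1 and Hspd1, where 27.2% were. A moderated F-test over the 4 groups passed for 2 of the 10 genes, Hspa8 (adjusted p = 0.0164) and Dnajb1 (adjusted p = 0.0247), and for 26.7% of all tested genes.

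Without Control replicate 1, limma called 6 of the 10 genes higher and 1 lower in Alkali-burned than in Control corneas, where 12.3% of all tested genes passed. The 6 were Hspa8, Dnaja1, Hsph1, Hsp90aa1, Hsp90ab1 and Hspe1, and the 1 lower was Dnajb1. The same fit called 3 of 10 lower in SF/HA than in Alkali-burned corneas (Hspa8, Dnaja1 and Hsp90aa1), where 4.91% of all tested genes passed. It called 3 higher (Dnajb1, Hspb1 and Hsph1) and 3 lower (Hspa8, Hsp90ab1 and Hspe1) in SF/HA-HEP-PAM than in Alkali-burned corneas, where 28.3% passed. It called Dnajb1 and Hsph1 higher in SF/HA-HEP-PAM than in SF/HA corneas, where 14.2% passed, and Hspa8 higher in SF/HA than in Control corneas, where 9.96% passed. It called 5 of 10 higher in SF/HA-HEP-PAM than in Control corneas (Hspa8, Dnaja1, Hsph1, Hsp90aa1 and Hspd1), where 23.4% passed. Comparisons that hold no Control library gained calls in this fit because all groups share 1 estimate of the spread.

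**Figure D2:**
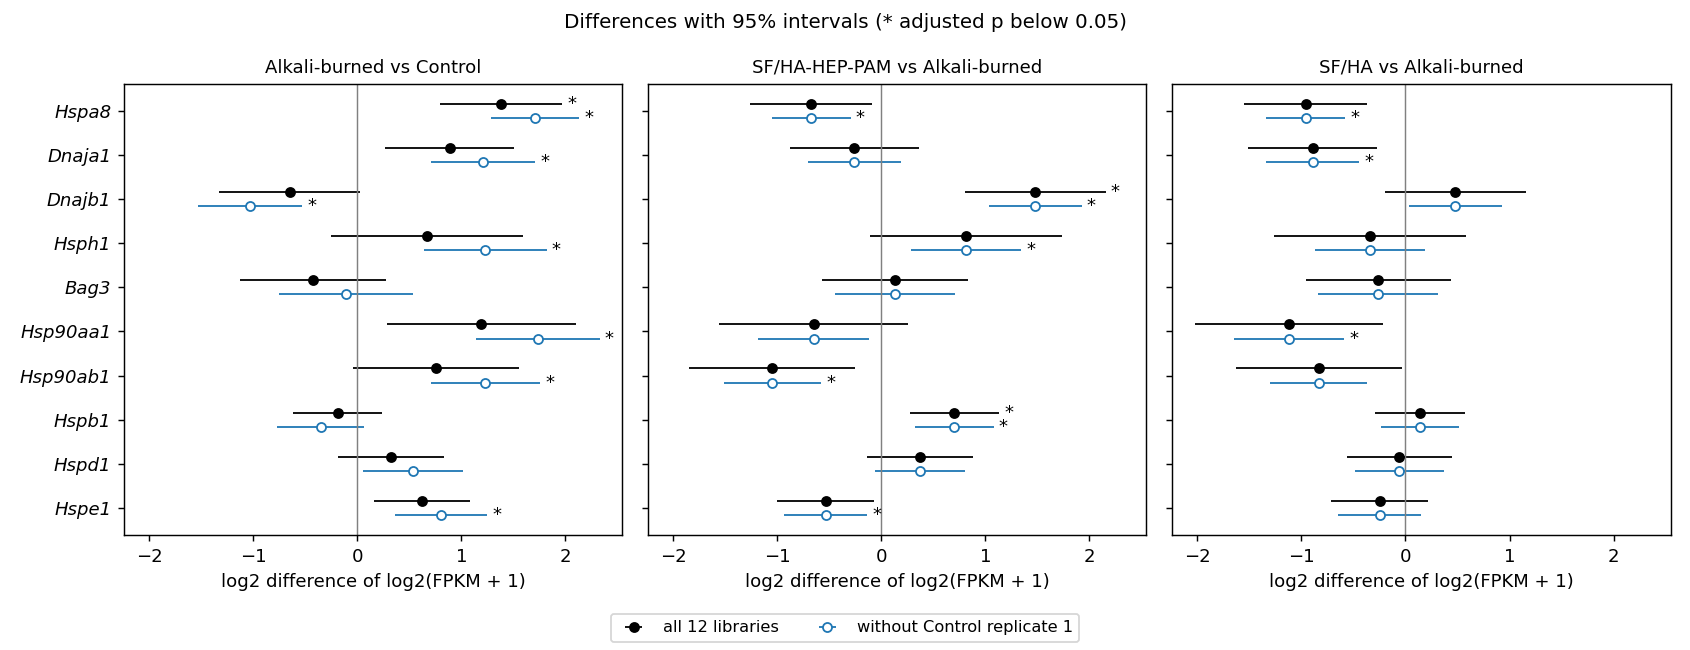
Log2 differences of log2(FPKM + 1) with 95% intervals for the 10 genes in 3 comparisons, from all 12 libraries (filled points) and without Control replicate 1 (open points), with an asterisk at an adjusted p below 0.05. Hspa8 lies at 1.38 in Alkali-burned against Control corneas and Dnajb1 at 1.48 in SF/HA-HEP-PAM against Alkali-burned corneas, and the open intervals are narrower.

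Hspa8 (ENSRNOG00000034066, mRatBN7.2 chromosome 8, 41183264 to 41187259, plus strand), whose window is shown above, carried the burn difference. It had 180.0, 121 and 116 FPKM in the Alkali-burned libraries, against 82.3, 38.4 and 43.6 FPKM in the Control libraries. The lowest burned library was above the highest Control library. The log2 difference was 1.38 ± 0.266 (SE; limma adjusted p = 0.0112), and 1.71 without Control replicate 1. In the patch groups Hspa8 lay on average between those groups, with 85.5, 84.0 and 85.4 FPKM in SF/HA-HEP-PAM libraries and 70.4, 62.7 and 76.0 FPKM in SF/HA libraries. Neither patch group overlapped the burned group, yet the differences of -0.67 (SF/HA-HEP-PAM against Alkali-burned, adjusted p = 0.0957) and -0.96 (SF/HA against Alkali-burned, adjusted p = 0.0886) missed the threshold. The 3 SF/HA-HEP-PAM values had an SD of 0.802 FPKM around a mean of 84.96, on 425 to 711 reads a library. In whole cornea, fewer cells of a type and less RNA per cell cannot be told apart. Copies of Hspa8 elsewhere in the genome are nearly identical, and 2 small nucleolar RNA genes lie inside its span, so its reads are uncertain to that extent.

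Markers of several cell types moved between the same libraries. Between Alkali-burned and Control corneas 6 of 6 tested macrophage markers and 4 of 4 tested myofibroblast markers rose, while 4 of 8 epithelium and 4 of 7 stroma markers fell, where 9.41% of all tested genes passed in either direction. Dcn (0.75), Lum (0.45) and Ptgds (0.54) of the stroma list and Krt15 (1.01) of the epithelium list were higher without passing. Krt12 (-0.88), Epcam (-0.41) and Cdh1 (-0.28) of the epithelium list were lower without passing. Lyz2, a lysozyme of myeloid cells, rose by 2.64 on the log2 scale, and Tagln, a smooth muscle actin-binding protein, by 4.42. Summed macrophage markers ranged from 225.0 to 275.3 FPKM in Alkali-burned libraries, against 66.8 to 88.6 FPKM in Control libraries. Summed myofibroblast markers ranged from 47.1 to 84.2 FPKM in Alkali-burned libraries, against 3.94 to 7.52 FPKM in Control libraries. In SF/HA-HEP-PAM libraries these sums were 153.2 to 166.0 FPKM for macrophage and 8.47 to 20.4 FPKM for myofibroblast markers. Neither sum overlapped the burned libraries there, and 3 of 4 myofibroblast markers (Tagln, Myl9 and Acta2) and 1 of 6 macrophage markers (Cd68) fell against Alkali-burned corneas, where 22.5% of all tested genes passed. Cd68 averaged 175.9 FPKM in Alkali-burned and 55.57 FPKM in SF/HA-HEP-PAM libraries, which lowers the macrophage sum. The other tested macrophage markers did not pass. Of these, Tyrobp (0.72), Lyz2 (0.36), C1qc (0.23) and C1qa (0.02) were higher in SF/HA-HEP-PAM and C1qb (-0.28) was lower. The part of cell make-up in the Hspa8 difference was not tested.

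The J-domain partners of Hspa8 went different ways. Dnaja1 (ENSRNOG00000007029, chromosome 5, 55842426 to 55853967, plus strand) followed Hspa8, with Pearson r = 0.903 across the 12 libraries, which share normalization within each library. It had 53.3, 31.9 and 33.4 FPKM in Alkali-burned and 32.4, 16.4 and 15.7 FPKM in Control libraries, where Control replicate 1 overlapped the burned libraries. The log2 difference of 0.89 had an adjusted p of 0.0787 by limma. SF/HA libraries held 20.0, 20.0 and 20.8 FPKM, below all 3 Alkali-burned libraries, with a log2 difference of -0.89 (limma adjusted p = 0.135). SF/HA-HEP-PAM libraries held 27.0, 38.1 and 31.7 FPKM, which overlapped the burned libraries.

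Dnajb1 (ENSRNOG00000021824, chromosome 19, 24522717 to 24526458, minus strand) was lowest on average in Alkali-burned corneas, where Hspa8 was highest. It had 399.9, 492 and 424 FPKM in SF/HA-HEP-PAM libraries, 217, 269.9 and 177 FPKM in SF/HA libraries, 205, 141 and 132 FPKM in Alkali-burned libraries, and 145, 317.5 and 322.5 FPKM in Control libraries. Every SF/HA-HEP-PAM library was above every library of the other groups. The log2 difference of SF/HA-HEP-PAM against Alkali-burned corneas was 1.48 ± 0.305 (SE; limma adjusted p = 0.00708), a 2.78-fold difference, and it passed in each of the 24 other settings tried. Against SF/HA corneas it was 1.001 (adjusted p = 0.0706) and against Control corneas 0.83 (adjusted p = 0.081). Between Alkali-burned and Control corneas the log2 difference was -0.65 with all libraries (adjusted p = 0.227) and -1.03 without Control replicate 1 (adjusted p = 0.0183).

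Some corneal epithelium markers moved with Dnajb1. Of 8 corneal epithelium markers in the table, 3 rose and 0 fell between SF/HA-HEP-PAM and Alkali-burned corneas, Pax6 (1.46), Epcam (1.21) and Cdh1 (1.04), where 22.5% of all tested genes passed. The keratin Krt12, with the highest mean FPKM of them, differed by 0.51 without passing. Against Control corneas Krt15 (2.35), Epcam (0.80) and Cdh1 (0.75) rose and Aldh3a1 (-1.01) and Tkt (-1.09) fell in SF/HA-HEP-PAM, where 21.9% of all tested genes passed. Krt14 and Trp63 were not analysed here. The summed FPKM of the 8 markers ranged from 3560 to 4588 in SF/HA-HEP-PAM, 2799 to 4065 in SF/HA, 2176 to 3514 in Alkali-burned and 4020 to 7209 in Control libraries. Summed stroma markers ranged from 696.7 to 1179 FPKM in SF/HA-HEP-PAM libraries, against 1548 to 1996 FPKM in Alkali-burned libraries. The part of cell make-up in the Dnajb1 and Hspb1 differences was not tested. Among 2061 other genes with a symbol and a mean of at least 5 FPKM, the levels most like Dnajb1 over the 12 libraries were those of Epcam (Pearson r = 0.949), Cldnd1 (0.921) and the tight junction gene Cldn4 (0.916).

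The exchange factor Hsph1 (ENSRNOG00000000902, chromosome 12, 5390922 to 5410224, plus strand) was also highest in SF/HA-HEP-PAM corneas. It had 13.9, 14.1 and 17.8 FPKM there, 5.89, 6.85 and 6.004 FPKM in SF/HA libraries, 12.5, 6.84 and 6.30 FPKM in Alkali-burned libraries, and 11.5, 2.40 and 3.52 FPKM in Control libraries. No SF/HA-HEP-PAM library overlapped any library of another group. The log2 difference against Control was 1.49 ± 0.416 (SE; limma adjusted p = 0.0283), or 2.05 without Control replicate 1, and against SF/HA corneas 1.16 (adjusted p = 0.109). The call against Control was lost without any 1 of the SF/HA-HEP-PAM libraries and without Control replicate 2 or 3. In the same libraries Bag3 (ENSRNOG00000020298, chromosome 1, 183102871 to 183126858, plus strand), the exchange factor linked to selective autophagy, passed in no comparison. Its mean was 7.35 FPKM in SF/HA-HEP-PAM, 5.34 in SF/HA, 6.98 in Alkali-burned and 9.70 in Control corneas. All 3 SF/HA libraries were below all 3 Control libraries for Bag3, as 9.08% of all tested genes were.

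**Figure D3:**
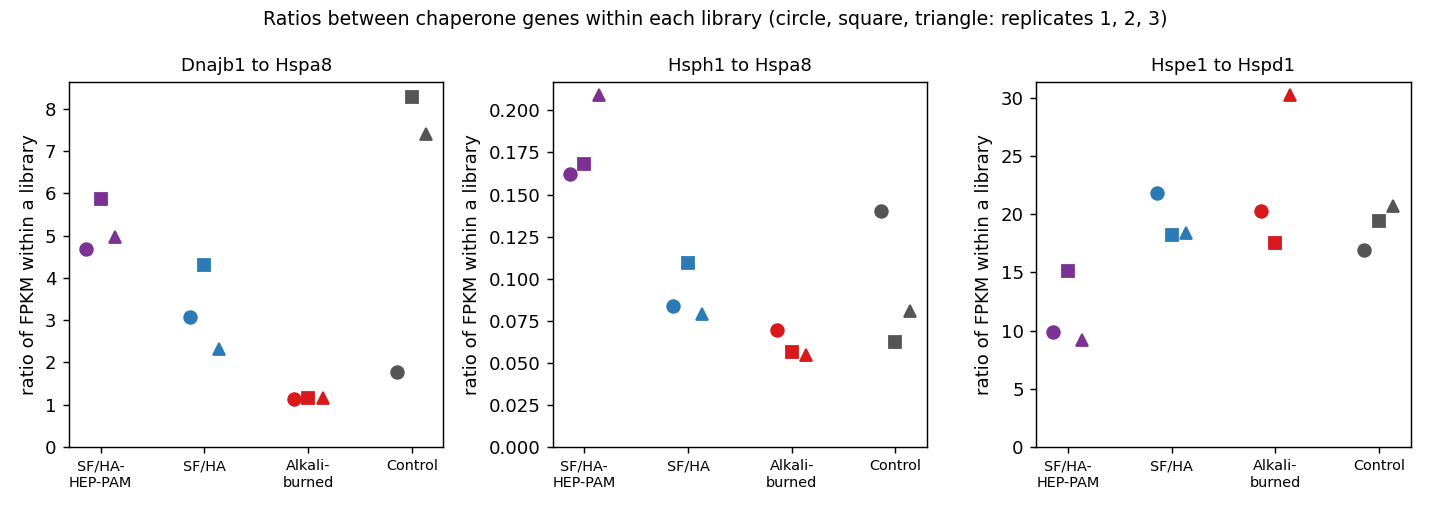
Ratios of FPKM within each library for 3 pairs of genes, with 1 point per library and groups side by side. The Dnajb1 to Hspa8 ratio is 4.68 to 5.86 in SF/HA-HEP-PAM and 1.14 to 1.16 in Alkali-burned libraries, and the Hspe1 to Hspd1 ratio is lowest in SF/HA-HEP-PAM libraries.

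A ratio between genes of 1 library does not depend on the scaling of that library. These pairs were chosen after their values were seen and are given with no test. The ratio of Dnajb1 to Hspa8 was 4.68, 5.86 and 4.96 in SF/HA-HEP-PAM libraries, 3.08, 4.31 and 2.32 in SF/HA libraries, 1.14, 1.16 and 1.15 in Alkali-burned libraries, and 1.76, 8.27 and 7.40 in Control libraries. The burned libraries were close together and below every other library, Control replicate 1 included. The ratio of Hsph1 to Hspa8 was 0.162, 0.168 and 0.209 in SF/HA-HEP-PAM libraries and 0.0697, 0.0563 and 0.0545 in Alkali-burned libraries. Every SF/HA-HEP-PAM library was above every Alkali-burned library in both ratios.

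Of the HSP90 pair, both members were highest on average in Alkali-burned corneas. Hsp90aa1 (ENSRNOG00000059714, chromosome 6, 129702383 to 129707268, minus strand), the stress-inducible form, had 40.3, 33.5 and 48.0 FPKM in SF/HA-HEP-PAM libraries, 36.5, 25.02 and 26.1 FPKM in SF/HA libraries, 75.4, 54.5 and 62.7 FPKM in Alkali-burned libraries, and 58.9, 14.1 and 24.0 FPKM in Control libraries. Both patch groups were below the burned group without overlap, and Control replicate 1 overlapped the burned group. Its burn difference of 1.19 ± 0.408 (SE) had an adjusted p of 0.102, and without Control replicate 1 it was 1.74 (adjusted p = 0.00483). Hsp90ab1 (ENSRNOG00000019834, chromosome 9, 15433691 to 15438488, plus strand), the constitutive form, had 39.0, 22.2 and 35.8 FPKM in SF/HA-HEP-PAM libraries, 36.8, 42.6 and 31.3 FPKM in SF/HA libraries, 59.3, 70.8 and 68.8 FPKM in Alkali-burned libraries, and 75.9, 26.3 and 28.9 FPKM in Control libraries. The log2 difference of SF/HA-HEP-PAM against Alkali-burned corneas was -1.05 with an adjusted p of 0.0611, and 0.00603 without Control replicate 1. Hsp90ab1 overlaps the antisense genes Nfkbie and Aars2, and the sources used here do not say that counting used strand, so reads of these genes cannot be told apart. The genes whose levels were most like Hsp90aa1 were Vcp (r = 0.89), which encodes an unfoldase of ubiquitinated proteins, Ddit3 (r = 0.885) and AABR07048992.1 (r = 0.882). Ddit3, a transcription factor of the integrated stress response, was also the gene most like Hspa8 (r = 0.932).

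The small heat shock protein Hspb1 (ENSRNOG00000023546, chromosome 12, 20794028 to 20795743, minus strand) had FPKM near those of Dnajb1, but fewer reads. FPKM is scaled to gene span, 1716 bases for Hspb1 and 3742 for Dnajb1, so it does not compare RNA amounts between genes. SF/HA-HEP-PAM libraries held 905, 1849 and 1023 reads of Hspb1, against 2143, 3901 and 1975 of Dnajb1. It had 368, 509 and 479 FPKM in SF/HA-HEP-PAM libraries, 371, 253 and 295 FPKM in SF/HA libraries, 297, 278 and 251 FPKM in Alkali-burned libraries, and 249, 349 and 352 FPKM in Control libraries. The log2 difference of SF/HA-HEP-PAM against Alkali-burned corneas was 0.70 ± 0.194 (SE; limma adjusted p = 0.0274), a 1.63-fold difference, with all 3 libraries above. It was not called without SF/HA-HEP-PAM replicate 2 or 3 or Alkali-burned replicate 2 or 3, nor with median-of-ratios scaling (adjusted p = 0.12). Across the 12 libraries Hspb1 and Dnajb1 had a Pearson r of 0.844.

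The mitochondrial chaperonin genes are neighbours, with 126 bases between their spans. Hspd1 (ENSRNOG00000014525, chromosome 9, 56579201 to 56589662, minus strand) had 6.61, 5.19 and 6.68 FPKM in SF/HA-HEP-PAM libraries, 4.29, 3.83 and 4.79 FPKM in SF/HA libraries, 6.03, 4.76 and 3.14 FPKM in Alkali-burned libraries, and 4.91, 2.70 and 2.92 FPKM in Control libraries. It was highest in SF/HA-HEP-PAM corneas, and its difference against Control, 0.69 ± 0.228 (SE), had an adjusted p of 0.0539, just short of the threshold, or 0.0167 without Control replicate 1. Hspe1 (ENSRNOG00000051624, chromosome 9, 56589789 to 56593089, plus strand) had 65.4, 78.3 and 61.5 FPKM in SF/HA-HEP-PAM libraries, 93.4, 69.8 and 88.3 FPKM in SF/HA libraries, 122, 83.1 and 95.3 FPKM in Alkali-burned libraries, and 82.9, 52.3 and 60.2 FPKM in Control libraries. The burned libraries were above the Control and SF/HA-HEP-PAM libraries without overlap, and the log2 differences of 0.62 (Alkali-burned against Control, adjusted p = 0.0972) and -0.53 (SF/HA-HEP-PAM against Alkali-burned, adjusted p = 0.095) did not pass. The ratio of Hspe1 to Hspd1 was 9.89, 15.1 and 9.22 in SF/HA-HEP-PAM libraries and 16.9 to 30.3 in the other 9 libraries. At 20 to 115 reads, Hspd1 had a 95% counting interval of up to 46.7% either side, and nearly identical copies of both genes elsewhere in the genome make their reads uncertain.

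The reads on all 10 genes together were 0.391%, 0.454% and 0.428% of SF/HA-HEP-PAM libraries, 0.293%, 0.277% and 0.257% of SF/HA libraries, 0.423%, 0.303% and 0.301% of Alkali-burned libraries, and 0.323%, 0.273% and 0.29% of Control libraries. SF/HA libraries lay below the burned libraries, and SF/HA-HEP-PAM libraries overlapped only Alkali-burned replicate 1. In SF/HA-HEP-PAM libraries Dnajb1 (2143, 3901 and 1975 reads) and Hspb1 (905, 1849 and 1023 reads) weighed most in this share. It does not describe the genes alike, as Hspa8, Hsp90aa1, Hsp90ab1 and Hspe1 were below the burned libraries there.

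Other genes of the same pathways were counted in lists, to be read beside the shares of all tested genes that passed: 9.41% after the burn, 22.5% in SF/HA-HEP-PAM against Alkali-burned corneas, 21.9% in SF/HA-HEP-PAM against Control, 8.85% in SF/HA-HEP-PAM against SF/HA and 6.59% in SF/HA against Control corneas. Of 14 tested HSP70 and HSP40 partners, 0 passed between Alkali-burned and Control corneas by limma and 1 rose between SF/HA-HEP-PAM and Alkali-burned corneas, Dnaja2 (0.72). This list held 23 symbols, of which 20 had a row. Hspa1a, Hspa1b and St13 had no row under these symbols and so were not tested. Against Control corneas Dnaja2 (0.72) and Bag2 (0.65) rose and Stub1, a ubiquitin ligase that binds HSP70, fell (-0.71) in SF/HA-HEP-PAM, and the BAG-domain gene Bag5 fell (-1.03, adjusted p = 0.0105) in SF/HA corneas. Of 7 HSP90 cochaperones 0 passed after the burn and Fkbp4 rose (0.57) in SF/HA-HEP-PAM against Alkali-burned corneas, while Stip1 (0.53) and Cdc37 (0.47) rose against Control corneas. The tested small heat shock proteins were 4, of which Hspb2 rose (0.57) after the burn and Hspb8 (0.84) in SF/HA-HEP-PAM against Control corneas. Cryab, with the highest mean FPKM of them, had 96.3, 64.6 and 65.0 FPKM in Alkali-burned and 46.0, 13.02 and 20.3 FPKM in Control libraries without passing. Of 8 subunits of the cytosolic chaperonin TRiC, Cct5 rose (0.55) after the burn, and Cct4 (0.51) and Cct3 (0.51) rose in SF/HA-HEP-PAM against Control corneas. Of 7 mitochondrial chaperones and proteases, Clpx (0.67) and Lonp1 (0.51), an unfoldase subunit and a protease, rose in SF/HA-HEP-PAM against Alkali-burned corneas. Lonp1 rose against SF/HA corneas (0.70), and Clpx fell by 0.55 after the burn. Clpx reached the filter minimum of 1 FPKM only in the SF/HA-HEP-PAM libraries and Control replicate 3. It was thus tested through the group where it was high, which favours a rise there. Its Alkali-burned levels of 0.323, 0.300 and 0.540 FPKM lie below the pseudocount of 1. With median-of-ratios scaling or quantile normalization, the calls above for Dnaja2, Bag2, Fkbp4, Stip1, Cdc37, Hspb2, Hspb8, Cct5, Cct4, Cct3, Lonp1 and Clpx after the burn were lost under at least 1 of them. Over all 24 other settings Bag5 passed in 23, Stub1 in 9, Fkbp4 in 9, Clpx after the burn in 7, Hspb2 in 6 and Cct3 in 5.

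HSF1 and the ubiquitin genes were read in the same fit. Hsf1 had 1.40, 1.61 and 1.46 FPKM in SF/HA-HEP-PAM libraries, against 0.727, 0.792 and 0.457 FPKM in Alkali-burned libraries and 0.666, 0.446 and 0.542 FPKM in SF/HA libraries. Hsf1 reached the filter minimum of 1 FPKM only in the SF/HA-HEP-PAM libraries. It was thus tested only through the group where it was high, which favours a rise there in each comparison. It rose by 0.59 against Alkali-burned (adjusted p = 0.0111) and by 0.68 against SF/HA corneas (adjusted p = 0.0136), at levels near the pseudocount of 1, which understates the fold. With quantile normalization the adjusted p against SF/HA corneas was 0.0843. Against Control corneas Hsf1 rose by 0.43 (adjusted p = 0.0416), but this passed in only 7 of the 24 other settings. Ubb, a polyubiquitin gene that heat shock is known to induce, had 130.3, 132 and 110.5 FPKM in SF/HA-HEP-PAM libraries, 118, 105 and 142 FPKM in SF/HA libraries, 264, 201 and 191 FPKM in Alkali-burned libraries, and 115, 99.8 and 109 FPKM in Control libraries. Ubb rose by 1.001 after the burn (adjusted p = 0.00582) and fell in SF/HA (-0.84, adjusted p = 0.0207) and SF/HA-HEP-PAM (-0.80, adjusted p = 0.00681) against Alkali-burned corneas. Of 9 proteasome and ubiquitin genes Ubb was the only one that passed after the burn, and Psmb5, a catalytic proteasome subunit, fell with it in SF/HA-HEP-PAM against Alkali-burned corneas (-0.48). Ubb was also the only gene of the 9 lists that passed between SF/HA and Alkali-burned corneas.

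Chaperones of the endoplasmic reticulum were listed apart. Of 14 tested, 4 rose and 0 fell between Alkali-burned and Control corneas, where 9.41% of all tested genes passed: Sdf2l1 (1.30), Calr (0.76), Creld2 (0.68) and Hspa5 (0.65). Between SF/HA-HEP-PAM and Alkali-burned corneas 1 rose, the J-domain gene Dnajb9 (1.18), and 1 fell, the lectin chaperone Calr (-0.95), where 22.5% of all tested genes passed. Against Control corneas Dnajb9 (1.16), Hyou1 (0.59) and Hspa5 (0.57) rose in SF/HA-HEP-PAM (21.9% of all tested genes passed) and Sdf2l1 (1.18) in SF/HA corneas (6.59%). Of 8 immediate early genes, Ier3 rose after the burn (1.06) and fell in SF/HA-HEP-PAM against Alkali-burned corneas (-0.68), where Jun rose (0.73). None of these lists was tested as a set, and the median difference of the 14 endoplasmic reticulum genes after the burn was 0.37 beside 0.0626 over all tested genes. With quantile normalization the calls for Calr, Creld2 and Hspa5 after the burn were lost and that for Sdf2l1 was not, and Ier3 against Alkali-burned corneas had an adjusted p of 0.0522. Hyou1 and Hspa5 against Control corneas in SF/HA-HEP-PAM were lost with median-of-ratios scaling and with quantile normalization.

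**Figure D4:**
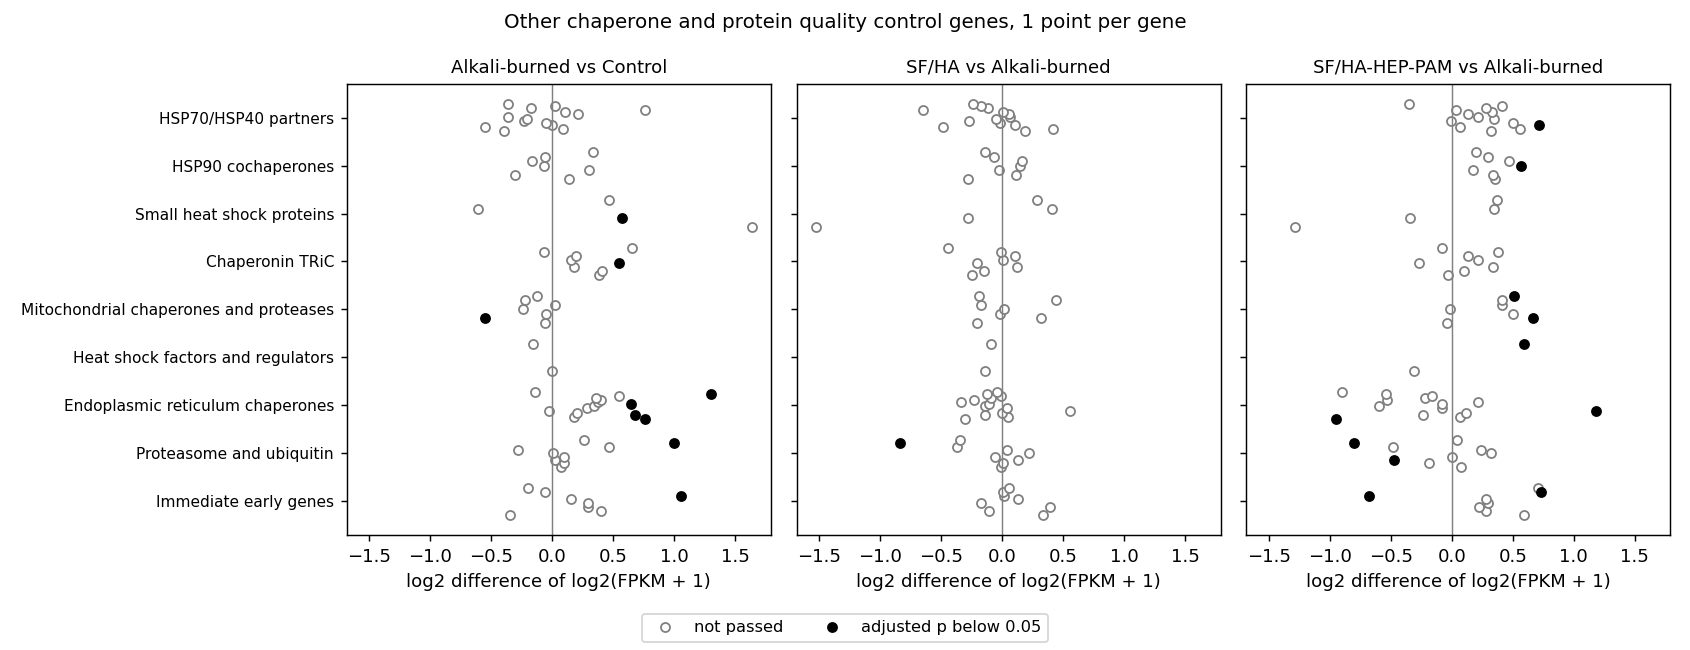
Log2 differences of log2(FPKM + 1), with 1 point per tested gene of 9 lists and 1 panel per comparison, filled at an adjusted p below 0.05. Filled points are few in each list, 4 of 14 for the endoplasmic reticulum chaperones after the burn, and the proteasome and ubiquitin list holds the only filled point in SF/HA against Alkali-burned corneas.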

How the data were processed

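The deposited values are FPKM, 1 column per library, computed by the authors. Libraries were made from RNA primed with poly(dT) primers that carry sample barcodes and molecular identifiers, per the labels' protocols. The series text names fastp, HTSeq-count and DESeq2, whereas bcl2fastq, STAR and featureCounts, with fastp and DESeq2, and build mRatBN7.2 stand in the submitters' processing notes. How duplicate molecules and strand were handled is not given in the sources used here. The deposited FPKM use the full gene span, introns included. Multiplying FPKM by length recovered whole reads, and 108 lines without a gene were dropped.

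Groups came from the sample titles. limma 3.58.1 in R 4.3.3, with a variance trend, was fitted to log2(FPKM + 1), so the changes of low genes are understated. The fit had 4 group means over 12 libraries and held 6112 genes that reached 1 FPKM in 3 libraries or more, with Benjamini-Hochberg adjustment within each of 6 comparisons. The fit was also run on simulated counts with the same extra spread for every gene and no outlying library. That run cannot show how the fit handles a library such as Control replicate 1, and its result is not given here. Plots were made with matplotlib 3.10.9 under Python 3.11.15. Intervals from reads cover counting error only.

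The members, lists and alternatives were chosen with earlier results of these data known. Named were all 10 members, up to 4 passing genes and the gene with the highest FPKM of each list, and the 3 genes most like Dnajb1, Hspa8, Hsp90aa1, Hspd1 and the members' mean. Not all are printed. The 24 other settings include voom on recovered reads.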

Additional observations from a re-analysis of the deposited data

How the results depend on the processing

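Of the 10 genes, 1 passed between Alkali-burned and Control corneas, 0 between SF/HA and Alkali-burned, 2 between SF/HA-HEP-PAM and Alkali-burned, 0 between SF/HA-HEP-PAM and SF/HA, 0 between SF/HA and Control, and 1 between SF/HA-HEP-PAM and Control corneas. In that order, library weights gave 7, 1, 5, 2, 1 and 5, voom gave 3, 1, 4, 2, 0 and 4, and leaving out Control replicate 1 and Alkali-burned replicate 1 together, chosen after seeing the data, gave 6, 2, 5, 3, 2 and 5. A fit of only the compared libraries gave 0, 0, 5, 2, 0 and 0. Without a filter, SF/HA-HEP-PAM gave 1 against Alkali-burned and 0 against Control corneas; median-of-ratios scaling gave 4 and thinning to the smallest library, also added after seeing the data, gave 1 against Alkali-burned corneas. Between SF/HA-HEP-PAM and Alkali-burned corneas, 1 of the 4 genes called with median-of-ratios scaling was higher in SF/HA-HEP-PAM and 3 were lower; 3 of 5 were higher with library weights, 2 of 4 with voom and 2 of 5 with the compared libraries alone. Leaving out 1 library at a time gave 1 to 7, 0 to 3, 1 to 6, 0 to 2, 0 to 1 and 0 to 5. The share of all tested genes called under each setting is not given beside these counts. All-gene calls moved as well, over the ranges printed below, so the counts have no fixed background. The causes of these changes were not tested.

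Across 1440 combinations of gene, comparison and setting, 15 calls were lost, 78 gained and 0 reversed. Hspa8 after the burn was lost only with the compared libraries alone (adjusted p = 0.0844), and Hspb1 against Alkali-burned corneas and Hsph1 against Control corneas were each lost under 7 settings. The median of all genes moved by -0.129 (SF/HA-HEP-PAM against Alkali-burned), -0.149 (against SF/HA) and -0.135 (against Control) with median-of-ratios scaling, and by -0.144 (Alkali-burned against Control), -0.115, -0.213 and -0.253 with quantile normalization. Of the genes that passed between SF/HA-HEP-PAM and Alkali-burned corneas, 64.8% were higher in SF/HA-HEP-PAM, and 44.6% and 48.3% with these scalings. Over all settings, all-gene calls ranged from 290 to 1301, 81 to 400, 732 to 2784, 99 to 1099, 106 to 703 and 736 to 2110. Deviations from the group means had correlations of -0.0935 to 0.155 between same-numbered libraries of different groups. Between libraries with different numbers they were -0.104 to 0.165. With 3 libraries a group these values cannot decide whether the replicate numbers pair the libraries. With the replicate block 2 genes passed against Control corneas in SF/HA-HEP-PAM, Hspd1 (adjusted p = 0.0456) besides Hsph1, and no other call among the 10 genes changed. Depth of 20 to 115 reads limits Hspd1 most.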

Other observations

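The genes whose levels were most like Hspd1 over the 12 libraries, of 2061 with a mean of at least 5 FPKM, were Gltpd2 (Pearson r = 0.955), Jmjd6 (0.886) and Tmed9 (0.876). The genes most like the mean of the 10 heat shock genes were Tpbg (0.892), Vcp (0.873) and Repin1 (0.845). Among the 10 genes themselves, Dnaja1 and Hspa8 (0.903), Hsph1 and Hspd1 (0.907) and Hspa8 and Hsp90aa1 (0.902) had r over 0.9, and Dnajb1 and Hsp90ab1 had the lowest (-0.791). These values describe 12 libraries in 4 groups that share their normalization, and no p is given.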
